A study of Homo sapiens with 24 samples.

Results

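The genes described here are 7 transcription factor genes that pattern the midbrain, the hindbrain and the dorsal midline of the neural tube, namely EN1, EN2, GBX1, GBX2, EGR2, LMX1A and LMX1B. They were chosen by name, with earlier results of these data known. All 7 were found among the 61551 genes of the count table, each as a single entry. Their RNA was measured in the established human embryonic stem cell line H9 (WA09), at the ESC stage (day 0) and as neuroectoderm (ECTO) after 5 days in KnockOut DMEM with serum replacement, the BMP antagonist Noggin at 500 ng/ml and the TGF-beta receptor inhibitor SB431542 at 10 µM. Cells were unedited (hHAR123, the WT), lacked the enhancer HAR123 on both alleles (HAR123-KO), or had the human sequence replaced by its ortholog from chimpanzee (cHAR123) or mouse (mHAR123), and no group carried a transgene. The comparisons address whether these factors depend on the presence and on the species of HAR123 at each stage. Every one of the 8 genotype and stage groups held 3 libraries (24 in all), with 21022748 to 35198684 counts per library. Each genotype rested on a pair of clones, so some libraries of a genotype share a clone, and which ones is not stated in the labels or the study's methods. P-values therefore measure the spread between libraries, which may be partly technical.

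LMX1A and LMX1B are LIM-homeodomain factors that specify the roof plate, the signaling center of the dorsal midline, and both also act in midbrain dopaminergic progenitors. EN1 and EN2 are engrailed homeodomain factors of the midbrain and anterior hindbrain, kept on by signals of the isthmic organizer at the midbrain-hindbrain border. GBX2 sets the hindbrain side of that border, GBX1 is its close paralog, and EGR2 (also called KROX20) is a zinc finger factor of hindbrain rhombomeres that also belongs to the early growth response family, whose members are induced by growth factor signals.

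The labelled stages were checked against marker genes. Summed over 7 pluripotency genes, levels were 4273 to 4567 CPM (the count scaled by the library total) in ESC libraries and 1484 to 1756 CPM in neuroectoderm, and 6 neuroectoderm genes summed to 15.1 to 20.6 CPM and 676 to 1433 CPM. Most of the pluripotency sum left in neuroectoderm was LIN28A, at 1555 CPM in hHAR123, whereas POU5F1 went from 1139 CPM in ESCs to 15.4 CPM, and the median log2 fold change of the 7 genes in hHAR123 was -6.50. Mesoderm markers (5 genes) summed to at most 3.77 CPM in neuroectoderm and endoderm markers (4 genes) to at most 0.331 CPM. HAR123 lies in an intron of SMG6, and counts over exons do not report on its deletion. For neuroectoderm, the column labels of the counts and the study's own list of regulated genes assign the chimpanzee and mouse genotypes the other way round, and values are given here by the column label.

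All 7 genes were located on GRCh38. LMX1A (ENSG00000162761) spans chr1:165201867-165356715 on the minus strand. LMX1B (ENSG00000136944) spans chr9:126613928-126701032 on the plus strand. EN1 (ENSG00000163064) spans chr2:118842171-118847648 on the minus strand and EN2 (ENSG00000164778) chr7:155458129-155464831 on the plus strand. GBX1 (ENSG00000164900) spans chr7:151148009-151174745, GBX2 (ENSG00000168505) chr2:236165236-236168386 and EGR2 (ENSG00000122877) chr10:62811996-62819167, all on the minus strand.

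Start regions were taken from RefSeq (GRCh38.p14), which gave windows of 250 bases before to 50 bases after the start for 6 of the 7 genes. Both of the regions shown belong to genes whose level changed in HAR123-KO neuroectoderm. The LMX1B region (chr9:126613678-126613928, plus strand, 5′ to 3′) is shown because LMX1B-DT, a gene on the opposite strand that runs away from LMX1B, starts within it, so that both genes begin in the same short stretch. Its capitals mark the 229 bases from the annotated start of LMX1B-DT to that of LMX1B.
LMX1B: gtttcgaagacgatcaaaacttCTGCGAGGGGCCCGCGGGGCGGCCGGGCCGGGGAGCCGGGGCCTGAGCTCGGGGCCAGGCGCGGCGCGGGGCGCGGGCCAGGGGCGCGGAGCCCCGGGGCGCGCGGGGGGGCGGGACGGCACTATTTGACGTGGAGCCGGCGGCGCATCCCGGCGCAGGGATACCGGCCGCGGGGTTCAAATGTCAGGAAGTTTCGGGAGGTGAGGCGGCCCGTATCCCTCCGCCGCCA
The EGR2 region (chr10:62816366-62816616, minus strand, 5′ to 3′) precedes the third of 3 RefSeq starts of EGR2 and is shown because it holds a CArG box, the sequence bound by serum response factor at many early growth response genes. Capitals mark this match at chr10:62816428-62816437, which begins 71 bases before the start and is a match of letters, not a shown binding site.
EGR2: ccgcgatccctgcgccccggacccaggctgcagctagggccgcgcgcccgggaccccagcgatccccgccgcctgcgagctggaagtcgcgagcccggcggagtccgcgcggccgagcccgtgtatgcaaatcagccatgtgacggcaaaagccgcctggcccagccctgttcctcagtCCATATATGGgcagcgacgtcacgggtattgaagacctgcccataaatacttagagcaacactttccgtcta

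A CArG box, a pair of C followed by a run of A or T and a pair of G, was searched on both strands and occurs in 1.29% of the 35116 windows of all genes. Other motifs searched on both strands in the whole windows were TATAAA (11.5% of all windows), the homeodomain core TAATTA (4.84%), the OTX-type site TAATCC (6.36%), and the TCF/LEF sequences CTTTGAT (2.62%) and CTTTGTT (5.20%). A CTTTGTT match lies in the window of the first EGR2 start, on the reverse strand, and no other match to these motifs was found in the windows of the 6 genes. The LMX1B window has a GC content of 75.3%, that of the first LMX1A start 74.3% and that of the EGR2 start shown 63.7%, beside a median of 58.7% over all windows.

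Across genotypes, LMX1B showed the largest log2 fold change of the 4 factors that could be tested in neuroectoderm. In hHAR123 neuroectoderm its level was 3.85, 3.84 and 3.84 CPM in the 3 libraries, whereas HAR123-KO libraries were at 90.5, 82.2 and 84.4 CPM. The libraries of cHAR123 were at 10.8, 9.76 and 10.8 CPM, and those of mHAR123 at 9.32, 10.7 and 11.2 CPM. Thus every HAR123-KO library was above every other library, and both ortholog genotypes lay above hHAR123 without overlap while overlapping each other. The means were 3.85 ± 0.00566 CPM in hHAR123, 85.7 ± 4.32 CPM in HAR123-KO, 10.4 ± 0.592 CPM in cHAR123 and 10.4 ± 1.0 CPM in mHAR123 (SD, n = 3). In HAR123-KO, LMX1B was higher than in hHAR123 by 4.53 ± 0.07 (log2 fold change and SE, edgeR quasi-likelihood test, Benjamini-Hochberg adjusted p = 2.02e-45). The increase was 1.45 ± 0.11 in cHAR123 (adjusted p = 4.81e-14) and 1.48 ± 0.11 in mHAR123 (adjusted p = 4.01e-13). In bulk RNA, a change in the number of cells of a type and a change in RNA per cell cannot be told apart.

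LMX1A, its paralog, also rose in HAR123-KO, with a smaller log2 fold change. Its libraries were at 20.1, 19.8 and 20.9 CPM in hHAR123 and at 43.1, 42.7 and 43.0 CPM in HAR123-KO. In cHAR123 they were at 25.9, 26.2 and 25.5 CPM, and in mHAR123 at 23.9, 25.2 and 25.7 CPM. The order of the groups was that of LMX1B, with no overlap between either ortholog genotype and hHAR123 or HAR123-KO. Relative to hHAR123, LMX1A was higher in HAR123-KO by 1.14 ± 0.06 on the log2 scale (adjusted p = 2.32e-23). The differences of 0.37 ± 0.06 in cHAR123 (adjusted p = 2.41e-05) and 0.34 in mHAR123 (adjusted p = 0.000119) were past the p threshold but under the log2 fold change of 1 required for a call.

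**Figure D1:**
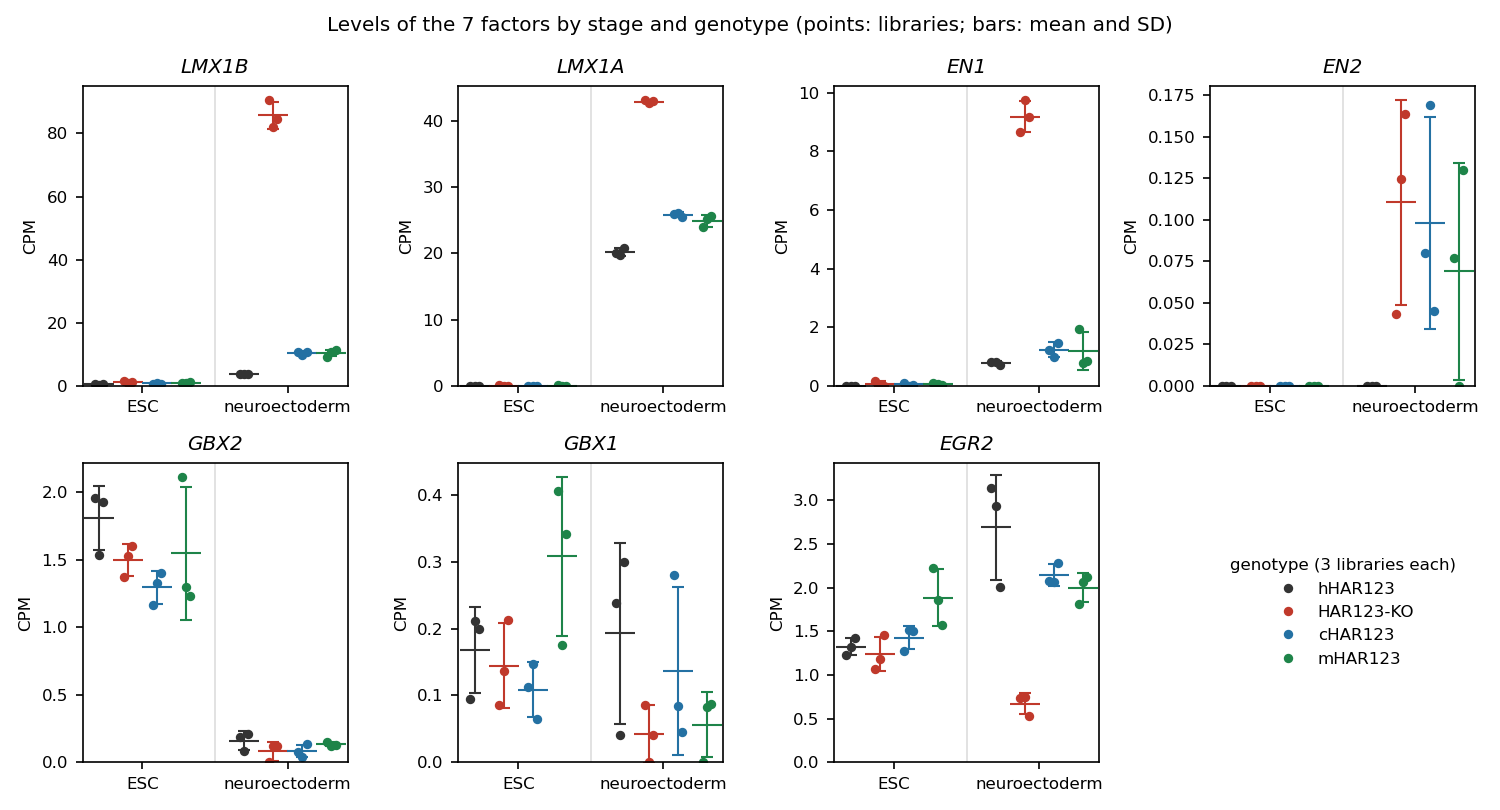
Level of each of the 7 factors in CPM (y axis, linear from 0, one scale per gene) in ESCs and neuroectoderm of the 4 genotypes; points are libraries, and bars show the mean and SD of 3 libraries. In neuroectoderm LMX1B, LMX1A and EN1 are highest and EGR2 lowest in all 3 HAR123-KO libraries, while GBX2 is lower in neuroectoderm than in ESCs in every genotype.

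Per length, the paralogs exchanged places. RPKM, which is the CPM divided by the exon length in kilobases, allows levels of different genes to be compared. The RPKM of LMX1A was 7.98 ± 0.230 times that of LMX1B in hHAR123 neuroectoderm, 3.76 ± 0.261 times in cHAR123 and 3.64 ± 0.229 times in mHAR123 (SD, n = 3). In HAR123-KO the ratio turned, and LMX1B was at 1.32 ± 0.0611 times the RPKM of LMX1A. LMX1A led in all 9 of the other neuroectoderm libraries, and LMX1B led in all 3 HAR123-KO libraries.

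**Figure D2:**
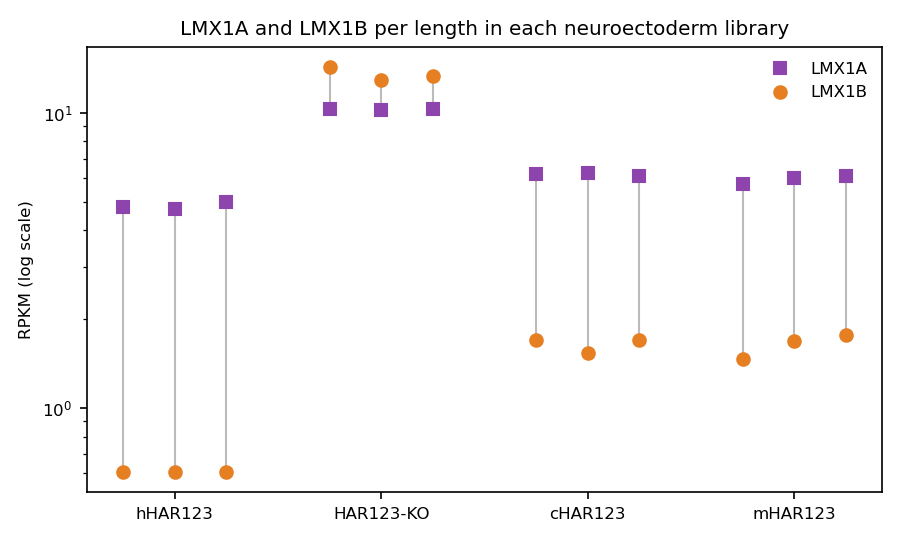
RPKM (y axis, log scale) of LMX1A (squares) and LMX1B (circles) in each of the 12 neuroectoderm libraries, grouped by genotype, with a grey line joining the 2 genes of a library. LMX1A lies above LMX1B in 9 libraries, and the circles lie above the squares in the 3 HAR123-KO libraries, where the ratio of LMX1B to LMX1A is 1.32.

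EN1 was low in hHAR123 neuroectoderm and rose in HAR123-KO. Counts of 17, 20 and 17 in hHAR123 correspond to 0.809, 0.827 and 0.726 CPM, and counts of 201, 234 and 224 in HAR123-KO to 8.66, 9.74 and 9.15 CPM. Levels were 1.24, 0.972 and 1.48 CPM in cHAR123 and 1.92, 0.787 and 0.865 CPM in mHAR123. One mHAR123 library, replicate 1 with 50 counts, stood above the other two of its group, which were at or near the hHAR123 levels. The increase in HAR123-KO was 3.59 ± 0.16 on the log2 scale (adjusted p = 2.44e-25). Relative to hHAR123 the log2 fold change was 0.65 in cHAR123 (adjusted p = 0.101) and 0.66 in mHAR123 (adjusted p = 0.129), neither past the threshold, and without mHAR123 replicate 1 the latter was 0.11 (adjusted p = 0.863). EN2, the other engrailed gene, was near the limit of detection. It had no count in any ESC library or in hHAR123 neuroectoderm, where 0 allows up to 3 counts in a library, and 1, 3 and 4 counts in HAR123-KO, 2, 4 and 1 in cHAR123 and 2, 0 and 3 in mHAR123. It was too low to be tested.

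EGR2 moved in the opposite direction. Its levels were 3.14, 2.93 and 2.01 CPM in hHAR123 neuroectoderm and 0.732, 0.749 and 0.531 CPM in HAR123-KO. In cHAR123 they were 2.08, 2.07 and 2.29 CPM and in mHAR123 1.81, 2.07 and 2.12 CPM. All HAR123-KO libraries were below all others, while both ortholog genotypes overlapped the hHAR123 range. In HAR123-KO, EGR2 fell by 1.94 on the log2 scale (SE 0.24, adjusted p = 1.54e-09). The log2 fold change was -0.31 in cHAR123 (adjusted p = 0.272) and -0.39 in mHAR123 (adjusted p = 0.144).

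The remaining factors of the hindbrain, GBX2 and GBX1, were too low in neuroectoderm to be tested there. GBX2 had 4, 2 and 5 counts in hHAR123, 0, 3 and 3 in HAR123-KO, 2, 1 and 3 in cHAR123, and 4, 3 and 3 in mHAR123, with overlap between all groups. GBX1 had 5, 1 and 7 counts in hHAR123 and 2, 0 and 1 in HAR123-KO. Summed over libraries and scaled by total counts, GBX1 was 4.53 times higher in hHAR123 than in HAR123-KO (exact 95% counting interval 1.24 to 24.8), an interval that covers counting error only. In cHAR123 it had 7, 2 and 1 counts and in mHAR123 0, 2 and 2. At this depth a difference in GBX2 between genotypes of neuroectoderm was not detectable.

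All 4 factors that could be tested in neuroectoderm (LMX1B, EN1, LMX1A and EGR2) were called in HAR123-KO against hHAR123, where 9.45% of all 21362 tested genes were called by the rule used throughout, a log2 fold change beyond 1 in either direction with adjusted p below 0.01. In cHAR123 against hHAR123, 1 of these 4 (LMX1B) was called, beside 0.978% of all tested genes. The same was found for mHAR123 against hHAR123, with LMX1B called and a background of 1.03%. These 3 comparisons share the hHAR123 libraries.

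**Figure D3:**
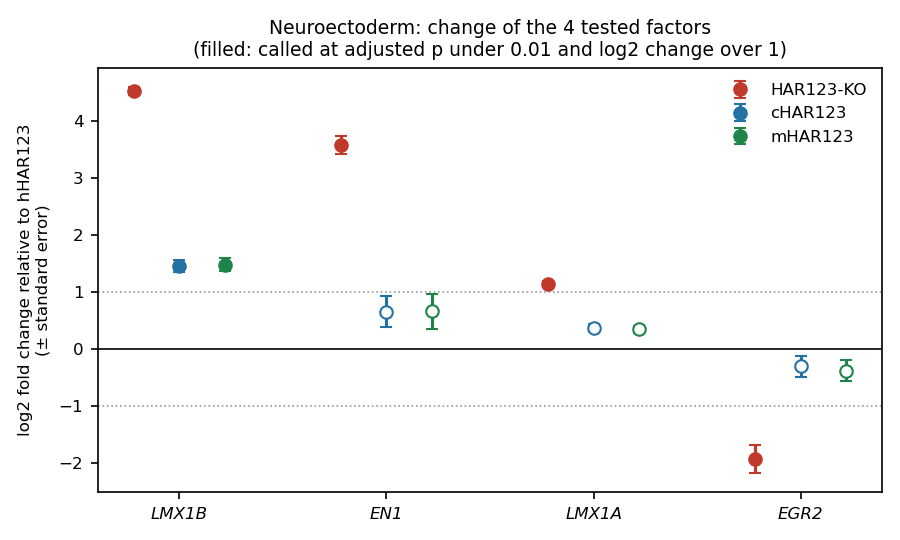
Log2 fold change relative to hHAR123 (y axis) of the 4 tested factors in HAR123-KO, cHAR123 and mHAR123 neuroectoderm; bars are standard errors, filled points are called, and dotted lines mark a log2 fold change of 1 in either direction. All 4 HAR123-KO points are called, from 4.53 for LMX1B to -1.94 for EGR2, and LMX1B alone is called in the ortholog genotypes.

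When the ortholog genotypes were set against HAR123-KO, LMX1B was lower by 3.05 in cHAR123 (log2 fold change -3.05, adjusted p = 1.09e-50) and by 3.03 in mHAR123 (log2 fold change -3.03, adjusted p = 9.34e-39). EN1 was also lower, with log2 fold changes of -2.91 (adjusted p = 1.89e-26) and -2.90 (adjusted p = 3.98e-20). EGR2 was higher, by 1.66 in cHAR123 (adjusted p = 3.85e-08) and 1.58 in mHAR123 (adjusted p = 5.88e-07) on the log2 scale. LMX1A differed by -0.74 (adjusted p = 1.97e-20) and -0.77 (adjusted p = 2.88e-17), under the required fold. Thus 3 of 4 tested factors were called against HAR123-KO in each, beside 7.61% of all tested genes for cHAR123 and 7.33% for mHAR123.

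Between mHAR123 and cHAR123 none of the 4 tested factors was called by edgeR, beside 0.261% of all tested genes. Of these 4, 0 had an unadjusted p under 0.05, and DESeq2 called 0 of the 2 to which it gave an adjusted p. The log2 difference (mHAR123 relative to cHAR123) was 0.02 ± 0.09 (SE) for LMX1B (adjusted p = 0.95) and -0.03 for LMX1A (adjusted p = 0.845). It was -0.08 for EGR2 (adjusted p = 0.88). For EN1 it was 0.00 ± 0.27 (adjusted p = 0.997), and -0.54 without mHAR123 replicate 1 (adjusted p = 0.34), so EN1 leaves the widest range for a difference.

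Considered as a set, the factors differed in composition between genotypes. In hHAR123 neuroectoderm LMX1A made up 73.3% of their summed RPKM, followed by EGR2 (11%), LMX1B (9.18%) and EN1 (4.17%). The RPKM of EGR2 (0.541 to 0.847) and LMX1B (0.606 to 0.607) overlapped there, as did that of GBX1 (0.019 to 0.136) and GBX2 (0.035 to 0.092), whereas other neighbours in the order were separate. In HAR123-KO the order was LMX1B (49.6%), LMX1A (37.7%), EN1 (11.8%) and EGR2 (0.664%), with no overlap between these 4. For cHAR123 the order was LMX1A (68.9%), LMX1B (18.4%), EGR2 (6.46%) and EN1 (4.81%), and for mHAR123 LMX1A (68.8%), LMX1B (19.0%), EGR2 (6.23%) and EN1 (4.82%). EN1 (0.275 to 0.674 RPKM) and EGR2 (0.488 to 0.572 RPKM) overlapped in mHAR123 and did not in cHAR123.

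Markers of another cell type moved with LMX1A, LMX1B and EN1. In this and the following lists, a gene that rose or fell is one called by the rule given above. The lists were chosen with earlier results of these data known. Against hHAR123, that rule called 9.45% of all tested genes in HAR123-KO neuroectoderm, 0.978% in cHAR123 and 1.03% in mHAR123. All 9 neural crest markers tested (among them FOXD3, SOX10 and TFAP2A) rose in HAR123-KO neuroectoderm, and their summed level was 253 to 261 CPM in hHAR123 libraries, 2147 to 2161 CPM in HAR123-KO, 444 to 454 CPM in cHAR123 and 508 to 514 CPM in mHAR123, with none of the 9 at 0 in any neuroectoderm group. Schwann cell markers (5 genes, which include S100B) summed to 175 to 182 CPM in hHAR123 and 480 to 491 CPM in HAR123-KO, and 3 of the 5 rose. Of the surface ectoderm markers (7 genes), 5 were tested, 2 rose and none fell in HAR123-KO, with a median log2 fold change of 0.79. Their sum was 63.3 to 63.8 CPM in hHAR123 and 134 to 138 CPM in HAR123-KO, a difference carried by TFAP2C (4.35 and 87.4 CPM), while KRT18 was at 52.7 and 38.0 CPM and the defining markers TP63 and KRT5 were too low to be tested. In contrast, the 6 neuroectoderm markers summed to 1387 to 1393 CPM in hHAR123, 676 to 699 CPM in HAR123-KO, 1426 to 1433 CPM in cHAR123 and 1343 to 1372 CPM in mHAR123. In HAR123-KO, 3 of them (SOX1, HES5 and SIX3) fell. The other 3 were also lower there, under the required fold. Their log2 fold changes were -0.92 for PAX6, -0.80 for ZNF521 and -0.48 for OTX1 (edgeR, adjusted p = 1.44e-31, 4.03e-29 and 9.6e-18). The part of these cell types in the levels of the 7 factors was not tested.

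Other genes of the roof plate and dorsal midline largely rose in HAR123-KO. Of 21 genes in the list, 20 were tested, 14 rose and 2 fell, with a median log2 fold change of 2.39 beside 0.00 over all tested genes. PAX7, a paired-box factor of the dorsal neural tube, rose from 1.89 ± 0.0802 to 124 ± 3.15 CPM (SD, n = 3), a log2 fold change of 6.09 (adjusted p = 1.5e-50). BMP4, a roof plate ligand, rose from 0.936 ± 0.0951 to 20.4 ± 0.498 CPM. The Wnt ligand genes WNT1 and WNT3A rose from 7.45 ± 0.719 to 137 ± 0.548 CPM and from 0.428 ± 0.226 to 6.98 ± 0.601 CPM. The 2 genes that fell, named after their values were seen, were BMP6 (log2 fold change -2.11), a BMP ligand, and RSPO2 (-1.73), a secreted enhancer of Wnt signaling. In cHAR123 9 of 20 rose and none fell (median 0.70 beside -0.01 over all tested genes), and in mHAR123 3 of 20 rose and none fell (median 0.46). By edgeR, 15 of the 20 in cHAR123 and 12 in mHAR123 had an unadjusted p under 0.05, and the counts of calls depend on the required fold. PAX3, for example, had a log2 fold change of 1.03 in cHAR123 and 0.97 in mHAR123, on either side of it. PAX3 is in this list and in that of neural crest markers.

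Genes of the isthmic organizer and midbrain went both ways. Of 12 tested genes (13 in the list), 5 rose and 3 fell in HAR123-KO, with a median log2 fold change of -0.06. WNT1, which keeps EN1 on at the midbrain side of the organizer and is also in the roof plate list, rose by 4.25 on the log2 scale (adjusted p = 1.66e-48). PAX2, a paired-box factor that precedes engrailed expression, rose from 6.36 ± 0.635 to 64.7 ± 0.533 CPM. The homeobox genes DMBX1 and POU4F1 rose by 3.31 and 3.15 on the log2 scale. FGF8, the signal of the organizer itself, was one of the 3 genes that fell, from 2.31 ± 0.101 to 0.571 ± 0.183 CPM, with PAX8 and SP8 as the others. OTX2 was lower as well, at 510 ± 8.80 CPM in hHAR123 and 257 ± 3.35 CPM in HAR123-KO. Its log2 fold change of -0.94 (edgeR, adjusted p = 3.31e-32) was under the required fold. FGF17, a ligand related to FGF8, rose from 0.133 ± 0.0865 to 0.597 ± 0.154 CPM. FGF8, PAX8, SP8, OTX2 and FGF17 were named after their values were seen. In cHAR123, WNT1, DMBX1 and POU4F1 rose (11 tested), and in mHAR123 PAX2 and POU4F1 did (11 tested).

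Targets of FGF signaling fell or were not called. Of 9 tested genes, 5 fell and none rose in HAR123-KO, with a median log2 fold change of -1.29. The ETS factor genes ETV5 and ETV4 fell from 28.0 ± 0.989 to 5.57 ± 0.262 CPM and from 6.25 ± 0.398 to 1.58 ± 0.466 CPM. SPRY2 and SPRY1, feedback inhibitors of FGF receptors, fell by 1.5 and 1.47 on the log2 scale. By edgeR none of the 9 was called in cHAR123 (median -0.30, 8 at an unadjusted p under 0.05) or mHAR123 (median -0.10, 4 at an unadjusted p under 0.05).

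**Figure D4:**
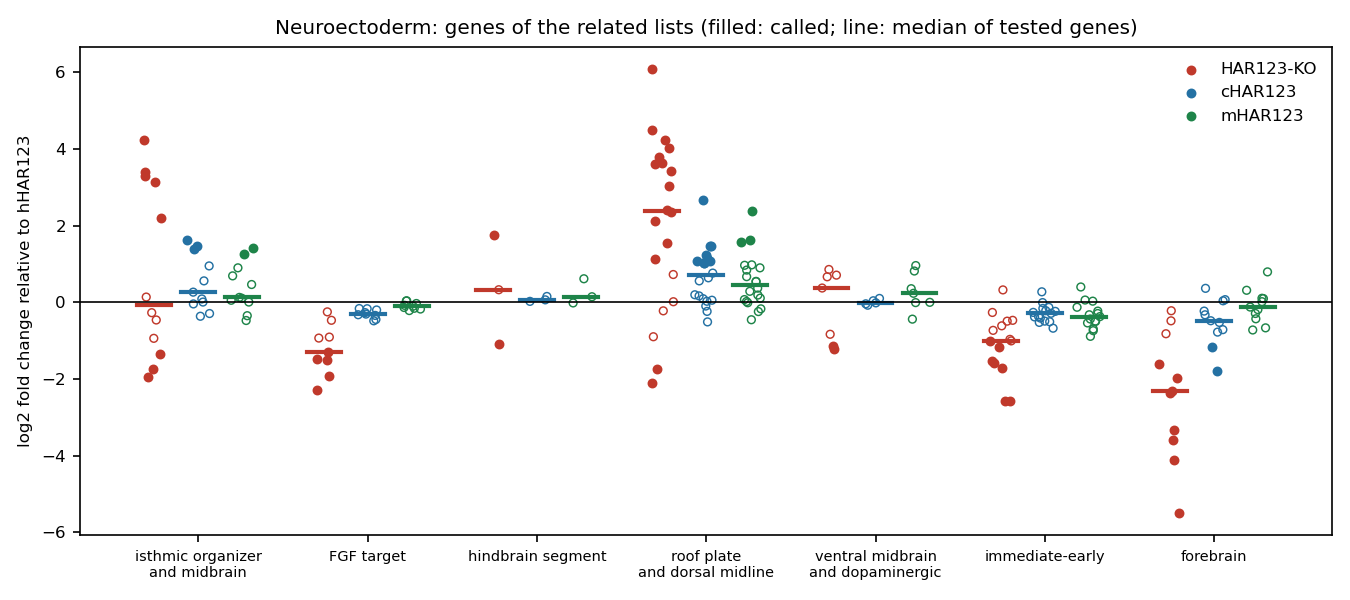
Log2 fold change relative to hHAR123 (y axis) of each tested gene of the 7 related lists (x axis) in HAR123-KO, cHAR123 and mHAR123 neuroectoderm; filled points are called and lines are medians of tested genes. In HAR123-KO the roof plate list has a median of 2.39 and the forebrain list one of -2.30, while the isthmic organizer list has genes on both sides of 0.

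Hindbrain segment genes were mostly too low in neuroectoderm to be tested, as 3 of 16 passed the filter on low counts, with none of the HOX genes among them. CYP26C1, which degrades retinoic acid, rose from 0.584 ± 0.0320 to 1.92 ± 0.591 CPM in HAR123-KO, and EPHA4, a receptor at rhombomere borders, fell from 467 ± 1.61 to 214 ± 0.928 CPM. In cHAR123 and mHAR123 edgeR called 0 of the 3, with 0 and 1 at an unadjusted p under 0.05. The ventral midbrain and dopaminergic list, where LMX1A and LMX1B also act, had 7 tested genes of 11, of which none rose and 2 fell in HAR123-KO (median 0.38). These were CORIN, a floor plate marker (log2 fold change -1.21), and NEUROG2, a proneural factor (-1.12). FOXA2 and SHH, which define the floor plate, were too low to be tested. Of this list edgeR called 0 of 5 tested genes in cHAR123 and 0 of 7 in mHAR123, with 0 and 1 at an unadjusted p under 0.05.

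Forebrain factors, given for the territory anterior to that of the 7 factors, fell in 8 of 11 tested cases in HAR123-KO (median -2.30), and none rose. NR2E1, a nuclear receptor of neural stem cells, fell from 24.9 ± 0.958 to 0.532 ± 0.102 CPM, and RAX, an eye field factor, from 9.97 ± 0.769 to 0.559 ± 0.307 CPM. The zinc finger genes FEZF2 and FEZF1 fell by 3.6 and 3.31 on the log2 scale. In cHAR123 the median was -0.48 over 11 tested genes, of which none rose and RAX was among those that fell, and in mHAR123 edgeR called 0 of 11 (median -0.12), with 8 at an unadjusted p under 0.05.

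EGR2 was accompanied by other immediate-early genes. Of 15 tested genes of this list, which leaves out EGR2, 7 fell and none rose in HAR123-KO neuroectoderm, with a median log2 fold change of -1.0. ARC, a synaptic regulator, fell from 6.80 ± 0.566 to 1.11 ± 0.373 CPM, and the EGR2 paralog EGR3 from 11 ± 0.927 to 3.26 ± 0.503 CPM. EGR1, another paralog, fell from 99.9 ± 2.44 to 32.0 ± 1.95 CPM, and FOS, an AP-1 subunit, from 21.9 ± 1.66 to 7.37 ± 0.891 CPM. By edgeR 0 of the 15 were called in cHAR123 (median -0.28) and mHAR123 (median -0.37), although 11 of 15 in each had an unadjusted p under 0.05 with changes under the required fold. In HAR123-KO ESCs edgeR called 0 of 13 (median 0.11), with 5 at an unadjusted p under 0.05.

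**Figure D5:**
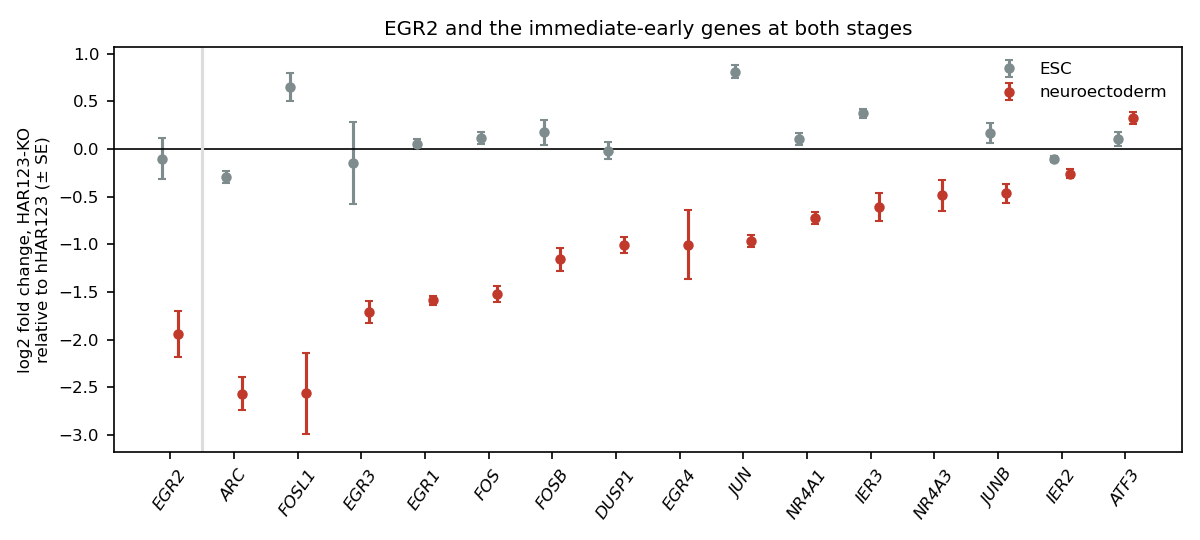
Log2 fold change in HAR123-KO relative to hHAR123 (y axis, bars are standard errors) of EGR2 and the immediate-early genes (x axis), in ESCs (grey) and neuroectoderm (red). EGR2 is at -0.10 in ESCs and -1.94 in neuroectoderm, and ATF3 is the single gene of the list above 0 in neuroectoderm.

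At the ESC stage only LMX1B, GBX2 and EGR2 were high enough to be tested. LMX1B had 24, 12 and 16 counts in hHAR123 (0.758, 0.361 and 0.455 CPM) and 40, 26 and 38 counts in HAR123-KO (1.71, 0.884 and 1.15 CPM). All HAR123-KO libraries were above all hHAR123 libraries. The log2 fold change was 1.21 ± 0.29 (adjusted p = 0.00206). This call was lost with DESeq2 (adjusted p = 0.0312) and when replicate 2 or 3 of hHAR123 or replicate 1 of HAR123-KO was left out (adjusted p = 0.0278, 0.0147 and 0.039). In cHAR123, with 0.676, 0.922 and 0.718 CPM, the log2 fold change of LMX1B was 0.53 (adjusted p = 0.214). In mHAR123, at 0.899, 0.983 and 1.16 CPM, it was 0.91 (adjusted p = 0.012), and without hHAR123 replicate 1 it passed the thresholds (1.26, adjusted p = 0.00247).

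GBX2, which is also expressed in pluripotent cells, was the leading factor of the 7 in ESCs, with 60.0% of their summed RPKM in hHAR123, ahead of EGR2 with 27.7%. Its levels were 1.96, 1.54 and 1.93 CPM in hHAR123, 1.37, 1.53 and 1.61 CPM in HAR123-KO, 1.16, 1.33 and 1.40 CPM in cHAR123 and 2.12, 1.30 and 1.23 CPM in mHAR123. Relative to hHAR123 the log2 fold change was -0.28 in HAR123-KO (adjusted p = 0.352), -0.50 in cHAR123 (adjusted p = 0.0529) and -0.24 in mHAR123 (adjusted p = 0.389). EGR2 lay between 1.07 and 2.23 CPM over the 12 ESC libraries, and its log2 fold change was -0.10 in HAR123-KO (adjusted p = 0.811), 0.08 in cHAR123 (adjusted p = 0.812) and 0.48 in mHAR123 (adjusted p = 0.0512). GBX1 had 2 to 14 counts per ESC library, EN1 0 to 4, LMX1A 0 to 3 and EN2 none. In ESCs, 1 of 3 tested factors was called in HAR123-KO beside 1.18% of all tested genes. By edgeR 0 of 3 were called in cHAR123 and in mHAR123, beside 0.85% and 1.23% of all tested genes. Of these 3, 1 and 2 had an unadjusted p under 0.05, and DESeq2 called 0 of the 2 to which it gave an adjusted p in each comparison.

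Differentiation changed most of the factors in every genotype, as it did a large share of all genes (45.9% of tested genes called in hHAR123, 41.1% in HAR123-KO, 42.7% in cHAR123 and 41.9% in mHAR123). LMX1A had no count in hHAR123 and cHAR123 ESCs and was at least 676-fold and at least 728-fold higher in neuroectoderm, taking 3 counts over the group as the floor. In mHAR123 ESCs it had 3 counts in all, and the neuroectoderm level was 766 times higher (exact 95% counting interval 262 to 3716). In HAR123-KO ESCs it had 4 counts, and the log2 fold change was 9.51. EN1 was at least 26.2-fold higher in hHAR123 neuroectoderm, where ESCs had no count, and rose by 6.99, 4.36 and 3.96 on the log2 scale in HAR123-KO, cHAR123 and mHAR123. The rise of LMX1B was 2.59 in hHAR123 (adjusted p = 1.01e-13), 5.94 in HAR123-KO, 3.55 in cHAR123 and 3.19 in mHAR123. GBX2 fell in each genotype, with log2 fold changes of -3.75, -4.29, -4.07 and -3.65 in hHAR123, HAR123-KO, cHAR123 and mHAR123. Here and below, values across stages for cHAR123 and mHAR123 hold only if the neuroectoderm column labels are right.

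For EGR2 the sign of the change over differentiation differed between genotypes. From ESCs to neuroectoderm its log2 fold change was 0.72 in hHAR123 (adjusted p = 0.000909, under the required fold), 0.37 in cHAR123 (adjusted p = 0.075), -0.10 in mHAR123 (adjusted p = 0.621) and -1.10 in HAR123-KO (adjusted p = 0.000264). The call in HAR123-KO was lost with DESeq2 (adjusted p = 0.0107) and without replicate 3 of HAR123-KO ESCs or of HAR123-KO neuroectoderm (log2 fold changes of -0.96 in both cases). Of 5 tested factors, 4 were thus called in hHAR123, 5 in HAR123-KO, 4 in cHAR123 and 4 in mHAR123.

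The effect of HAR123 loss was next compared between stages, as an interaction over 12 libraries. For LMX1B the effect in neuroectoderm exceeded that in ESCs by 3.32 ± 0.33 on the log2 scale (adjusted p = 5.02e-12), and for EGR2 it was lower by 1.85 (-1.85 ± 0.33, adjusted p = 7.1e-06). GBX2 did not pass (-0.58, adjusted p = 0.579), and no difference is given for LMX1A and EN1, which had no count in hHAR123 ESCs. Thus 2 of 5 tested factors were called, beside 7.87% of all tested genes. Here and for the ortholog genotypes, the 5 include LMX1A and EN1, for which the absence of a call shows no lack of a difference. By edgeR 0 of the 5 were called in cHAR123 (0.797% of all tested genes, 1 of 5 at an unadjusted p under 0.05, 0 called by DESeq2), with LMX1B at 0.93 (adjusted p = 0.0331). In mHAR123 edgeR also called 0 of 5 (0.967% of all tested genes, 2 of 5 at an unadjusted p under 0.05, 0 called by DESeq2), where LMX1B was at 0.59 (adjusted p = 0.178) and EGR2 at -0.84 (adjusted p = 0.0201), the latter called at -1.01 (adjusted p = 0.00486) without hHAR123 neuroectoderm replicate 3.

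Genes near the 7 factors were examined in HAR123-KO against hHAR123 neuroectoderm, where 9.45% of all tested genes were called. LMX1B-DT, which starts 228 bases from LMX1B in the region printed above and is transcribed away from it, had 23 counts in hHAR123 and 353 in HAR123-KO over 3 libraries each, a log2 fold change of 3.91 (adjusted p = 1.35e-20). ENSG00000238010, which lies inside LMX1B on the same strand, had 3 and 150 counts (log2 fold change 5.47, adjusted p = 2.55e-14), and its reads cannot be told apart from unspliced LMX1B RNA. ZBTB43, a zinc finger gene and the nearest tested gene downstream, was at 0.04 (adjusted p = 0.61). Within 500 kb of LMX1B, 3 of 8 tested genes rose, ENSG00000238010 among them and ANGPTL2 being the third. Beside EN1, LINC01956, 7061 bases away, had 2 and 51 counts (log2 fold change 4.42, adjusted p = 7.9e-08), the single call among 3 tested neighbours. RXRG, a retinoid receptor gene 44207 bases from LMX1A, had 9 and 175 counts (log2 fold change 4.21, adjusted p = 5.71e-15) and was the single call among 8. None of 3 tested neighbours of EGR2, of 4 of GBX2 and of 8 of EN2 was called. Near GBX1, 2 of 21 (CRYGN and ABCB8) were called, 1 in each direction, a share near that over all tested genes. ENSG00000289487, which overlaps EGR2 on the same strand, had 5 and 4 counts and was not tested. The antisense gene GBX2-AS1 overlaps GBX2, and since it is not given whether counting used strand, its 24 and 23 counts in hHAR123 and HAR123-KO cannot be told apart from reads of GBX2.

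Genes with the pattern most like that of each tested factor were found by Pearson's r of log2 CPM over the 12 neuroectoderm libraries among 17570 genes, as a description. The 3 closest to LMX1B were MSN (r = 0.999), FBN2 (0.998) and IGDCC3 (0.998). For LMX1A they were LMX1B (0.997), IGDCC3 (0.997) and ZIC2 (0.997). EN1 was closest to DDN (0.991), FAM98A (0.990) and CLMN (0.988), and EGR2 to KLHL13 (0.991), FGF12 (0.987) and FCHSD2 (0.984). As many as 74 genes reached r over 0.99 with LMX1B and 50 with LMX1A, and the 12 points share the separation of HAR123-KO from the other genotypes. With Spearman's rho, 1 of the 3 genes was kept for EGR2 and none for LMX1B, LMX1A and EN1, so the order within these lists depends on the measure.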

How the data were processed

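RNA-seq was performed in 24 libraries, grouped by genotype and stage from the sample labels. The authors depleted ribosomal RNA, made directional paired-end libraries, used STAR 2.5.2b for alignment to GRCh38 and featureCounts for counting by Ensembl gene. Raw, unnormalized counts were deposited, and the strand setting is not given in the sources used here. Reads removed before counting cannot be seen in these values. ANK2, broken over 3 lines of the table, was left out. The deposited table holds no other per-sample columns. Positions and exon lengths were those given with the deposited counts. Symbols came from a GENCODE annotation of GRCh38, and 61398 of 61551 genes had a symbol.

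Tests used edgeR 4.0.16 in R 4.3.3 (filterByExpr, TMM scaling, quasi-likelihood F test, Benjamini-Hochberg adjustment over all tested genes). Each pair of groups was fitted alone, and stage differences were fitted as an interaction over 12 libraries, 16 comparisons in all. A call required a log2 fold change beyond 1 in either direction with adjusted p below 0.01. Preparation and description used Python 3.11.15. The edgeR and DESeq2 fits were tested on simulated data before use. Where a group had no count, a lower bound from a floor of 3 counts over the group replaced the fitted fold change. Intervals and floors cover counting error only. With totals of 21022748 to 35198684 counts, 1 CPM is about 21 to 35 counts.

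All 7 genes are described, whether called or not, and those too low to be tested are given by their counts. Of the 7 related lists, up to 4 called genes each are named, those with the largest change in HAR123-KO neuroectoderm at a mean of at least 1 CPM, together with the 3 genes most like each factor, and neighbours within 500 kb that overlap it or are nearest. The 7 genes, the related lists and the 7 marker lists were chosen with earlier results of these data known. Results for some genes of these lists are not reported here. Alternatives were DESeq2 1.42.0, DESeq2-type size factors, no filter on low counts, a joint fit of all libraries, a replicate block, an adjusted p below 0.05 for a call, leaving out each library, TMM-scaled levels and Spearman's rho.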

Additional observations from a re-analysis of the deposited data

Results flagged for a closer look

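A pair of results stood out because the effect of HAR123 loss differed between the stages when the difference itself was tested (edgeR interaction over 12 libraries). For LMX1B, the log2 fold change of HAR123-KO relative to hHAR123 was 1.21 in ESCs and 4.53 in neuroectoderm, and the difference was 3.32 ± 0.33 (SE, adjusted p = 5.02e-12). All 3 HAR123-KO libraries were above all 3 hHAR123 libraries at both stages. For EGR2, the log2 fold change was -0.10 in ESCs and -1.94 in neuroectoderm, and the difference was -1.85 ± 0.33 (adjusted p = 7.1e-06). Its HAR123-KO libraries were below those of hHAR123 in neuroectoderm in 3 of 3 cases and overlapped them in ESCs. The summed neural crest markers were at 125 to 130 CPM in hHAR123 and 140 to 142 CPM in HAR123-KO ESCs. In hHAR123 ESCs most of this sum was ETS1 (65.6 CPM) and FOXD3 (39.2 CPM), and 4 of the 9 genes were under 1 CPM. Both ETS1 and FOXD3 were lower in hHAR123 neuroectoderm, so in hHAR123 the sums of the stages were carried by different genes. In neuroectoderm the sums were 253 to 261 CPM in hHAR123 and 2147 to 2161 CPM in HAR123-KO. The part of the neural crest markers in these results was not tested.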

How the results depend on the processing

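Of 758 values that the alternatives gave for the log2 fold changes of single factors, 737 kept their direction and their side of the thresholds, 12 changed sign, 7 lost a call and 2 gained one. In neuroectoderm against hHAR123, every call among LMX1B, LMX1A, EN1 and EGR2 was kept under each alternative run. Leaving out each library in turn, the number of factors called higher ranged from 0 to 1 for HAR123-KO against hHAR123 in ESCs and from 0 to 1 for mHAR123 against hHAR123 in ESCs, and the number called lower ranged from 1 to 2 for neuroectoderm against ESCs in HAR123-KO and from 0 to 1 for the stage difference in mHAR123. DESeq2 called 0 factors higher in HAR123-KO ESCs in place of 1, and 1 lower in place of 2 for neuroectoderm against ESCs in HAR123-KO. Without the filter on low counts, 2 factors in place of 1 were lower in mHAR123 neuroectoderm than in ESCs, the additional one being GBX1. Sign changes occurred among values near 0 that were not called. When libraries were left out, mHAR123 relative to cHAR123 ranged from -0.54 to 0.23 for EN1, -0.056 to 0.0052 for LMX1A and -0.043 to 0.10 for LMX1B, the stage effect of EGR2 in mHAR123 from -0.24 to 0.037, and the stage difference of GBX2 in mHAR123 from -0.25 to 0.40. Pairing of the samples by replicate number was not detected, as 0 of 39 pairs of same-numbered libraries had correlated deviations over 0.1 (range -0.0541 to 0.0568). These correlations ran over 17513 genes, so a shared influence on few genes would not be seen. With the replicate number as a replicate block, EN1 in mHAR123 relative to cHAR123 changed sign to -0.027 (adjusted p = 0.975), and no call changed. With TMM-scaled library sizes, levels such as LMX1B in HAR123-KO (79.4 in place of 85.7 CPM) moved by more than 1 SD in 12 cases. EN2 and GBX1 (at most 14 counts in a library), GBX2 in neuroectoderm (at most 5) and EN1 and LMX1A in ESCs (at most 4) are limited by depth.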
